A study of Mus musculus with 12 samples.

Results

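The creatine kinases and the genes that supply cells with creatine were followed as 7 genes, Ckb, Ckm, Ckmt1, Ckmt2, Slc6a8, Gatm and Gamt, out of 56748 genes in the deposited table. Ckb, around which the set was drawn, was selected on its difference between KO and Het rods, and the other 6 were added for their roles with results of the same libraries known. All 7 symbols were found in the table, each once.

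Phosphocreatine is a reserve of high-energy phosphate, and creatine kinases move that phosphate between phosphocreatine and ATP, which lets cells buffer ATP where it is spent quickly. Ckb encodes the cytosolic brain-type kinase and Ckmt1 the ubiquitous mitochondrial kinase, while Ckm and Ckmt2 encode the muscle-type cytosolic and the sarcomeric mitochondrial kinases. Creatine is taken up through the transporter encoded by Slc6a8 or made in steps, in which the product of Gatm joins arginine and glycine into guanidinoacetate and that of Gamt methylates it with S-adenosylmethionine, and photoreceptors are known for a high demand for ATP.

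Each library came from retinas of 2-week-old mice that carry RiboTag, a ribosomal protein Rpl22 that gains an HA tag in cells with Cre, and the i75 rod Cre transgene driven by the rhodopsin promoter. Mice called Het carried Shp2 fl/+, so their rods keep 1 intact allele of Ptpn11, the gene of the phosphatase Shp2, and their littermates called KO carried Shp2 fl/fl. RNA bound to tagged ribosomes (TRAP) is called rods here, RNA of the whole tissue lysate is called retina, and each of the 4 groups had 3 libraries. Sample titles call the controls wt while their genotype field gives the heterozygous allele, so no group here is free of Cre, and the Het rods are no wild type. Nothing in the labels says which libraries came from separate mice, so that the spread between libraries, on which each p-value rests, may be partly technical.

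The deposited values are whole numbers proportional to reads, and are called values below. Their totals were 16263948 to 16265259 in the 6 rod libraries and 14525527 to 14527992 in the 6 retina libraries, so depth cannot be read from them. Depth estimated from the spacing of low values was 11890000 to 25280000 reads in rods and 9980000 to 19230000 in retina. A count of 0 therefore allows a value of up to 1.93 to 4.10 in a rod library and 2.27 to 4.37 in a retina library, which is 3 reads and covers counting error alone. For tests, values were scaled between libraries by TMM factors, raised by 2 and taken to log2, and a gene was called when its limma adjusted p was under 0.05 and its log2 fold change beyond 0.5 in size. Levels are printed with TMM factors over all 12 libraries, while each fold change comes from factors over the libraries of its own comparison, so the ratio of printed means can differ from the fold change. Lists of cell type markers were compared in the same way. All 18 rod markers were called higher in rods than in retina in both genotypes, with a median log2 fold change of 1.79 in Het and 1.95 in KO.

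Ptpn11 itself had values of 2511, 2439 and 2431 in Het rods, 1735, 2139 and 1971 in KO rods, 2390, 2512 and 2125 in Het retina, and 2205, 2147 and 2466 in KO retina. Every KO rod library lay below every Het rod library, whereas the retina groups overlapped. The log2 fold change of Ptpn11 was -0.26 between KO and Het rods (SE 0.09, limma adjusted p = 0.0637) and -0.04 between KO and Het retina (SE 0.14).

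Ckb, the cytosolic kinase of brain type (ENSMUSG00000001270, chromosome 12), had values of 2726, 3690 and 3411 in the Het rod libraries and 7170, 9503 and 6372 in the KO rod libraries. In whole retina, its values were 3735, 7727 and 2102 in Het, against 4603, 2569 and 7207 in KO. The KO rods were high in all 3 libraries and did not overlap the Het rods, while each retina group spread from a library below all Het rods to one above all of them. After scaling, Ckb averaged 3776 ± 560 in Het rods, 8821 ± 1747 in KO rods, 3883 ± 2473 in Het retina and 4231 ± 2178 in KO retina (SD, n = 3 each). In the order of these levels, KO rods came first and did not overlap the next group, and KO retina, Het retina and Het rods followed with ranges that overlapped one another.

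Ckmt1, which encodes the kinase between the mitochondrial membranes (ENSMUSG00000000308, chromosome 2), had values of 3200, 3999 and 3454 in Het rods, against 4759, 4716 and 4646 in KO rods. Whole retina gave 1709, 1934 and 1157 in Het, against 2105, 1910 and 1801 in KO. Every rod library was above every retina library, all KO rod libraries were above all Het rod libraries, and the retina groups overlapped. Scaled levels of Ckmt1 averaged 4093 ± 454 in Het rods, 5415 ± 119 in KO rods, 1375 ± 330 in Het retina and 1695 ± 79.8 in KO retina (SD, n = 3 each). Ckmt1 was 2.69-fold higher in Het rods than in Het retina (log2 1.43, SE 0.19, limma adjusted p = 0.000218). In KO rods it was 3.15-fold higher than in KO retina (log2 1.66, SE 0.10, limma adjusted p = 2.56e-06).

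**Figure D1:**
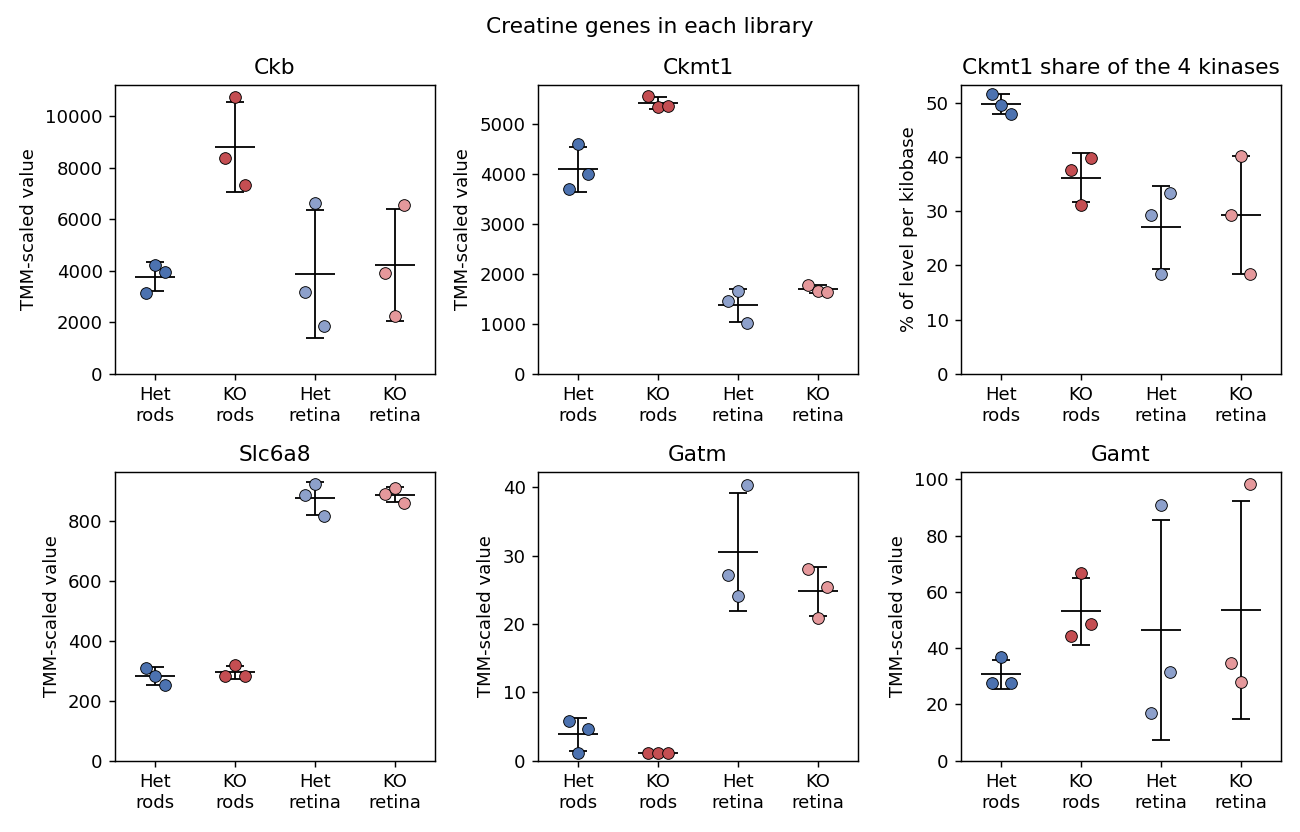
TMM-scaled values of Ckb, Ckmt1, Slc6a8, Gatm and Gamt, and the share of Ckmt1 among the 4 kinase genes in % of their level per kilobase, by fraction and genotype; points are libraries and bars the mean ± SD of 3. Ckb stands apart in the KO rods (7348 to 10751), Ckmt1 is higher in rods, and Slc6a8 is higher in retina. Gatm lies near or under the limit of 3 reads in rods and passed the filter on low values through retina alone.

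Per kilobase of transcript, where genes can be set side by side, Ckb stood at 2565 ± 381 and Ckmt1 at 2527 ± 280 in Het rods (SD, n = 3). In KO rods the same scale gave 5993 ± 1187 for Ckb and 3343 ± 73.7 for Ckmt1. Which gene is higher depends on the transcript length taken, as the longest transcript in place of the longest coding one put Ckb at 1330 in Het rods and 3107 in KO rods and left Ckmt1 as it was. Ckmt1 made up 51.6, 49.6 and 47.9% of the summed level per kilobase of the 4 kinase genes in the Het rod libraries, and 37.6, 31.1 and 39.8% in the KO rod libraries. In whole retina, the Ckmt1 share was 29.4, 18.5 and 33.3% in Het, against 29.3, 40.2 and 18.5% in KO. All Het rod libraries were above all others, the KO rods overlapped the KO retina, and the retina groups overlapped each other. The mean share was 49.7 ± 1.85% in Het rods and 27.0 ± 7.65% in Het retina, and 36.2 ± 4.56% in KO rods and 29.4 ± 10.9% in KO retina (SD, n = 3 each). Since the share holds the rod values of Ckb, on which that gene was selected, the rod shares are a description with no test. Between the retina groups a 2-sided exact permutation test gave p = 1, where 0.1 is the smallest that 3 against 3 libraries can give.

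Ckm, the muscle-type kinase (ENSMUSG00000030399, chromosome 7), had values of 0 to 4 in rods and 0 to 8 in retina. Ckmt2, its sarcomeric mitochondrial counterpart (ENSMUSG00000021622, chromosome 13), was listed at 0 in all 6 rod libraries and between 0 and 14 in retina. In rods both genes were at or near the limit that 3 reads set, while in retina Ckmt2 lay above it in 4 of 6 libraries and Ckm in Het retina replicate 2 and KO retina replicate 3. Both overlapped between neighbouring groups and together made up no more than 0.222% of the kinase level in any library. Neither passed the filter on low values in any comparison, and no fold change is given for them. Skeletal muscle markers were low as well, with a summed level over 20 genes of 111 to 194 in rods and 322 to 559 in retina. Tnnt1 was the most abundant of them, and Myh1, Myh8, Tnnt3, Tnnc2 and Tnni2 were at 0 in all rod libraries.

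The kinase genes resemble one another, and since their levels are set side by side here, a window of 90 coding bases that all 4 hold is shown to let their likeness be seen. The window comes from GENCODE M21 transcripts (GRCm38), starts at coding base 550 in Ckb and Ckm and at base 652 in Ckmt1 and Ckmt2, and marks each base that differs from Ckb with a capital.
Ckb: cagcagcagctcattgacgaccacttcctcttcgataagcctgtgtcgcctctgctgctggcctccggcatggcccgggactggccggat
Ckm: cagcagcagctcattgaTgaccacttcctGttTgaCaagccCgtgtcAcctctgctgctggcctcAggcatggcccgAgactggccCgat
Ckmt1: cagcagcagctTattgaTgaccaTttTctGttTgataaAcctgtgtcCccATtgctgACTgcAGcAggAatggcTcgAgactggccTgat
Ckmt2: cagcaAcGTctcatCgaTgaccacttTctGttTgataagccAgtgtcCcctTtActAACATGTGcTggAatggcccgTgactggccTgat
In this window Ckm differed from Ckb at 9 bases, Ckmt1 at 20 and Ckmt2 at 24. Over the whole coding regions, the longest run without a difference was 20 bases between Ckb and Ckm and 15 bases between Ckb and either mitochondrial kinase gene. GC content at the third position of codons was 78.7% in Ckb and 81.6% in Ckm, against 56.9% in Ckmt1 and 58.5% in Ckmt2. The pseudogenes Ckb-ps1 and Ckb-ps2 had values of 0 in all libraries, apart from a value of 1 for Ckb-ps2 in KO retina replicate 3.

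Slc6a8, the importer of creatine (ENSMUSG00000019558, chromosome X), had values of 269, 247 and 218 in Het rods, against 242, 283 and 246 in KO rods. In whole retina its values were 1044, 1079 and 932 in Het, against 1051, 1050 and 949 in KO. All retina libraries were above all rod libraries, and the genotypes overlapped in both fractions. Scaled levels averaged 282 ± 29.6 in Het rods and 877 ± 55.3 in Het retina (SD, n = 3 each), and Slc6a8 was 3.48-fold lower in the rods (log2 -1.80, SE 0.14, limma adjusted p = 8.27e-06). With 295 ± 21.5 in KO rods and 889 ± 25.1 in KO retina (SD, n = 3 each), it was 3.04-fold lower in KO rods (log2 -1.61, SE 0.12, limma adjusted p = 6.57e-06). The size depends on the setting, as the log2 fold change was -1.04 in Het and -1.27 in KO with the GC trend described below removed. The transporter and the mitochondrial kinase thus lay on opposite sides, with Ckmt1 higher and Slc6a8 lower in rods than in retina in both genotypes.

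Gatm, which makes the precursor of creatine (ENSMUSG00000027199, chromosome 2), had values of 5, 1 and 4 in Het rods, 1, 1 and 1 in KO rods, 32, 28 and 46 in Het retina and 33, 24 and 28 in KO retina. The rods were all near or under the limit of 3 reads, and all retina libraries were well above them. Turned back into reads, Gatm had an estimated 109 reads in Het retina and 9 in Het rods, a ratio of shares of 14.2 (95% exact interval 7.22 to 31.9). In KO the estimates were 82 reads in retina and 3 in rods, a ratio of 29.0 (9.58 to 143), and both intervals cover counting error alone. The limma log2 fold change, whose size depends on the pseudocount at such values, was -2.68 in Het (SE 0.40) and -3.09 in KO (SE 0.30). Gatm passed the filter on low values through the retina libraries alone, so its call in this direction supports nothing and no p-value is given for it.

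Gamt, the methyltransferase of the last step (ENSMUSG00000020150, chromosome 10), had values of 24, 32 and 24 in Het rods, against 38, 59 and 42 in KO rods. Whole retina gave 20, 106 and 36 in Het, against 41, 32 and 108 in KO. A single library in each retina group stood far above the others of its group, and these were the same libraries, Het retina replicate 2 and KO retina replicate 3, in which Ckb was highest. Scaled means ran from 30.7 ± 5.19 in Het rods to 53.6 ± 38.8 in KO retina (SD, n = 3), and every neighbouring pair of groups overlapped. The log2 fold change of Gamt was -0.42 in Het rods over retina (SE 0.54, limma adjusted p = 0.518) and 0.16 in KO rods over retina (SE 0.44, limma adjusted p = 0.760).

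Set against the whole table, 3 of the 5 members tested between Het rods and Het retina were called, where 58.3% of 16110 genes were. Ckmt1 was the 1 called higher, as were 21.6% of all genes, and Slc6a8 and Gatm were the 2 called lower, as were 36.8%. Between KO rods and KO retina 4 of 5 were called beside 62.3% of 16121 genes, with Ckb and Ckmt1 higher (25.8% of all genes) and Slc6a8 and Gatm lower (36.5%). Ckb had a log2 fold change of -0.02 in Het and 1.16 in KO rods over retina, and since rod values led to its choice, neither carries weight as a test. With the GC trend described below removed, these values were 1.11 and 1.68, so the contrast between the genotypes depends on that setting. With the call of Gatm set aside too, Ckmt1 and Slc6a8 were the members called in both genotypes. The call of Ckb in KO was also lost without KO rod replicate 2, where the log2 fold change was 1.03. The shares called among the members were near those of all genes, and with so few genes the counts say nothing particular about creatine genes. In bulk RNA such as whole retina, fewer cells of a type and less RNA per cell cannot be told apart, and a gene lower in rods may be lower in rods or higher in any other cells.

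Markers of other cells moved with Slc6a8 and Gatm, and as for Gatm, the call of a marker that passed the filter through retina alone supports nothing. Of 14 Müller glia markers tested, 13 were called lower in Het rods, and the summed level of the list was 8225 to 10867 in rods and 56902 to 89894 in retina, led by Glul, where the gene that leads a list is the most abundant over all 12 libraries. All 10 vascular markers were lower, at 117 to 193 against 3119 to 3646, led by Kdr, and 11 of 11 markers of retinal pigment epithelium, at 315 to 972 against 5729 to 22742, led by Rlbp1, which the Müller list also holds. Amacrine markers were lower for 9 of 10 genes (2582 to 3295 against 14944 to 16338, led by Meis2, which leads in rods but not in retina) and ganglion cell markers for 10 of 10 (319 to 595 against 10764 to 12545, led by Nefl). Bipolar markers were lower for 12 of 14 and higher for 1, Otx2 (9198 to 12655 against 22267 to 24829.7, led by Prkca), and horizontal cell markers were lower for 6 of 6 (629.99 to 884 against 3565 to 4550.3, led by Septin4). Cone markers were lower for 10 of 10 (6473 to 10018 against 13806 to 16583, led by Opn1sw), microglia markers for 7 of 8 (244 to 365 against 578 to 933) and astrocyte markers for 3 of 3 (9.05 to 24.5 against 277 to 602, led by S100b, with Pax2 at 0 in rods). Lens markers were called for 0 of 15 genes in Het by limma, with 0 at an unadjusted p under 0.05 (12.7 to 21214 against 502 to 963019.9, led by Cryaa, with Lim2 at 0 in rods), and 8 were called lower in KO. Skeletal muscle markers were lower for 3 of 5 genes tested. In KO rods the markers called lower were 14 of 15 for Müller glia, 8 of 8 vascular, 5 of 12 of pigment epithelium, 9 of 10 amacrine, 10 of 10 ganglion cell, 12 of 14 bipolar, 5 of 5 horizontal cell, 9 of 10 cone, 8 of 9 microglia, 3 of 3 astrocyte and 3 of 6 muscle, where Mylpf and Actn3 were called higher. Of the genes called lower in Het rods, 12 of the 13 Müller glia markers also passed the filter between KO and Het rods, as did 4 of 10 vascular, 9 of 11 pigment epithelium, 6 of 9 amacrine, 8 of 10 ganglion cell, 11 of 12 bipolar, 3 of 6 horizontal cell, 10 of 10 cone, 0 of 7 microglia, 0 of 3 astrocyte and 1 of 3 muscle markers. Which of these cells hold the Slc6a8 and Gatm RNA of whole retina was not tested.

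Between KO and Het retina, which asks whether loss of Shp2 in rods shifts creatine genes in the tissue, 0 of 5 members tested were called by limma, as were 0% of 16863 genes, with 140 genes at an unadjusted p under 0.05. The log2 fold change of Ckb was 0.17 with a 95% interval from -1.04 to 1.38, so a change as large as that described in rods was within reach of the libraries' spread. For Ckmt1 it was 0.31 (-0.14 to 0.76), and for Gamt 0.28 (-1.27 to 1.84). Slc6a8 was measured most closely, at 0.00 (-0.29 to 0.30), and Gatm stood at -0.28 (-0.95 to 0.40). Each of the 5 had a limma adjusted p of 1.

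Between KO and Het rods, the contrast on which Ckb was selected, values are given as a description with no test. The log2 fold change was 1.30 for Ckb, 0.82 for Gamt, 0.50 for Ckmt1 and 0.15 for Slc6a8. KO and Het libraries did not overlap for 3 of these 4 genes, and for 19.5% of the 13055 genes tested every KO library lay above every Het library. In that comparison 13.1% of genes were called, 11.2% higher and 1.91% lower in KO, and nothing is read from the members' place among them. The split was 1460 higher and 250 lower, against 173 and 167 with the GC trend described below removed. In 1 fit of all 12 libraries limma called 0 genes, with 3127 at an unadjusted p under 0.05. Gatm, Ckm and Ckmt2 were under the filter on low values. Of the rod markers, Pde6g, Cngb1, Rom1, Prph2 and Reep6 (5 of 18) were called higher in KO rods and 0 lower. Of other cells' markers, Apoe and Clu (2 of 13 Müller glia markers tested) and Slc6a9 (1 of 7 amacrine markers tested) were called higher, and the part of any of these lists in the differences of the members was not tested. For the difference between genotypes in rods minus that in retina, 0% of 17192 genes were called by limma, with 601 at an unadjusted p under 0.05. That difference was 1.03 on the log2 scale for Ckb, 0.45 for Gamt, 0.08 for Ckmt1, 0.05 for Slc6a8 and -0.53 for Gatm.

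The transcripts of the members differ in GC content, and libraries differed in how strongly they held GC-rich transcripts. The transcript of Ckb is 59.99% GC, above 95.9% of 16594 genes of the retina libraries, and that of Gamt is 59.7%. Slc6a8 has 56.8%, Ckmt1 54.9%, Ckm 54.0%, Ckmt2 50.5% and Gatm 43.2%. The GC trend of a library is taken here as the median log2 deviation, from the gene's mean over the fraction, of the 10% of genes with the most GC minus that of the 10% with the least. It was -0.24, 0.86 and -0.83 in the Het retina libraries and 0.01, -0.63 and 0.90 in the KO retina libraries. The deviation of Ckb was -0.19, 0.88 and -0.97 in Het retina and 0.11, -0.69 and 0.86 in KO retina, so both measures were high and low in the same libraries. Over the 6 retina libraries, Ckb and the trend had a Pearson r of 0.99 (2-sided exact permutation p = 0.00556, adjusted over 5 genes 0.0278) and a Spearman rho of 0.94 (exact p = 0.0167, adjusted 0.0833). Without the 2 libraries farthest from the median trend, r was 0.9998 over 4 libraries. Ckb and Gamt are themselves among the 10% of genes with the most GC, from which the trend is taken. As r was computed for no other gene of that 10%, its p-value says nothing particular to either gene. For Gamt r was 0.84 (exact permutation p = 0.075, adjusted 0.188) and rho 0.77 (exact p = 0.103, adjusted 0.257), and as r was -0.12 without the 2 farthest libraries, the relation rests on them. Ckmt1, Slc6a8 and Gatm had r of 0.58, 0.38 and -0.40, rho of 0.31, 0.26 and -0.31, and exact permutation p for r of 0.183, 0.492 and 0.442.

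**Figure D2:**
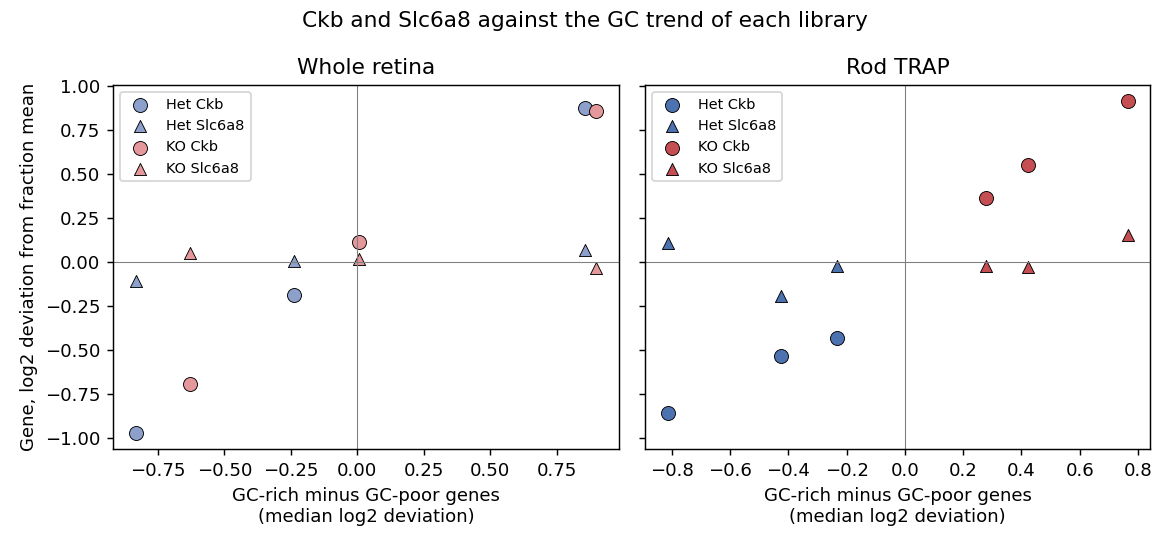
Log2 deviation of Ckb (circles) and of Slc6a8 (triangles) from the mean over the fraction (vertical) against the GC trend of the library (horizontal, log2), for the 6 retina and the 6 rod libraries. In retina Ckb follows the trend from -0.97 to 0.88 in Het and KO libraries alike, while in rods the Het and KO libraries form separate groups.

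In rods the GC trend was -0.81, -0.23 and -0.42 in the Het libraries and 0.42, 0.76 and 0.28 in the KO libraries. Ckb deviated by -0.86, -0.43 and -0.54 in Het rods and by 0.55, 0.91 and 0.36 in KO rods. Both measures fell into separate clusters by genotype, so no pooled r is given, and in rods the trend and the genotype cannot be told apart. Genes called higher in KO rods had a median GC content of 57.5%, those called lower 43.2%, and all tested genes 49.5%. With the GC trend of each library removed before the fit, the KO and Het rods differed by 0.56 in Ckb, 0.16 in Ckmt1, 0.10 in Gamt and -0.35 in Slc6a8 on the log2 scale. The part of this trend in the difference of Ckb between genotypes was not tested.

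Among 12099 genes with a mean scaled value of at least 50, the 5 whose centred log2 values lay nearest to those of Ckb over the 12 libraries were Ppp1r16a, Pcnx3, Atp5d, Nr1h2 and Zbtb17. Their root mean square differences from Ckb were 0.112, 0.113, 0.124, 0.125 and 0.130 on the log2 scale. Their transcripts were 60.5, 60.4, 59.3, 60.6 and 59.0% GC, as GC-rich as that of Ckb. Pcnx3, for one, had scaled means of 441 in Het rods, 1033 in KO rods, 455 in Het retina and 445 in KO retina. Since the rod values of Ckb were part of the pick, a higher level in KO rods is built into these 5 genes.

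The genes around the creatine pathway were taken as 6 lists, each given also for its genes that passed the filter between KO and Het rods, called detected in rods here, since a lower call of the others rests on retina alone. Beside each list stand the shares of all genes: 21.6% higher and 36.8% lower in Het rods over retina, 25.8% and 36.5% in KO. Between KO and Het rods 13.1% of all genes were called. The medians of all genes given with the first list hold for the others too. Of 8 genes for creatine export and related Slc6 transporters, 1 was called higher in Het rods than in Het retina and 7 were called lower, with a median log2 fold change of -4.87 where that of all genes was -0.11. Of these 8, 5 were detected in rods, of which 4 were called lower (median -5.05). Slc6a6, the taurine transporter, was the 1 higher, at 47595 ± 1965 in Het rods and 20792 ± 1700.0 in Het retina (SD, n = 3), a 2.04-fold difference (limma adjusted p = 5.07e-05). KO rods gave the same counts of 1 higher and 7 lower, with a median of -4.67, where that of all genes was -0.02, and over the 5 detected in rods 4 were lower (median -4.50). Slc6a8 was lower in rods by less than the median of these relatives.

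A list of 16 genes covered the supply of arginine and glycine, the substrates of Gatm, and of ornithine. Of these genes 14 were tested, and 3 were called higher and 7 lower in Het rods (median -1.08). Over the 12 detected in rods, 5 were lower and the median was 0.23, so the sign of the median rests on genes seen in retina alone. Oat, which makes glutamate semialdehyde from ornithine, was higher by 1.03 (SE 0.11, limma adjusted p = 6.34e-05) and Odc1, ornithine decarboxylase, by 1.09 (SE 0.14, limma adjusted p = 0.000175). Ass1, argininosuccinate synthase, fell the most, at 14.6 ± 9.63 in Het rods and 486 ± 188 in Het retina (SD, n = 3; log2 -5.10, SE 0.47, limma adjusted p = 2.18e-05). In KO rods 6 were higher and 7 lower (median -0.88), or 5 lower with a median of 0.50 over the 12 detected in rods, and Ass1 again fell the most, at -5.08. Oat and Odc1, which use ornithine, were thus higher in rods than in retina.

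Of 15 genes of the methyl donor cycle, which provides the methyl group that Gamt uses, 11 were tested, all 11 detected in rods, and 3 were higher and 2 lower in Het rods (median 0.31). Ahcy, which clears S-adenosylhomocysteine, was highest by fold at 0.90 (SE 0.18, limma adjusted p = 0.00248) and its relative Ahcyl2 lowest at -2.04 (SE 0.16, limma adjusted p = 8.08e-06). In KO rods 4 were higher and 3 lower (median 0.35), with Ahcy at 1.17 and Ahcyl2 at -2.46. Mat2a, which makes S-adenosylmethionine, averaged 3332 ± 441 in Het rods, 1982 ± 41.7 in KO rods, 3970 ± 729 in Het retina and 4158 ± 941 in KO retina (SD, n = 3 each). It was called lower in KO than in Het rods (log2 -0.65, SE 0.10, limma adjusted p = 0.00303). That call was lost with the GC trend removed, under which 0 genes of this list were called by limma, while 4, in place of 2, were called without KO rod replicate 3.

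The 21 genes of adenylate and nucleotide phosphotransfer include other enzymes that pass phosphate between nucleotides, and also AMP deaminases. Of these genes 15 were tested, with 4 higher and 7 lower in Het rods (median -0.45). Over the 12 detected in rods 4 were lower, and the median was 0.29. Guk1, guanylate kinase, was highest by fold at 0.80 (SE 0.19, limma adjusted p = 0.00601), and Ampd3, an AMP deaminase, had the largest fall, with a mean of 5.78 in Het rods and 144 in Het retina, though like Gatm it passed the filter through retina alone, so its call supports nothing. In KO rods, 14 were tested, with 3 higher and 6 lower (median -0.07), or 4 lower with a median of -0.0028 over the 12 detected in rods. Guk1 was again the highest by fold, at 1.14. Ak4, an adenylate kinase of mitochondria, was the 1 gene of the list called between KO and Het rods, at 1393 ± 337 against 2056 ± 86.2 (SD, n = 3; log2 -0.51, SE 0.14, limma adjusted p = 0.0249). The call of Ak4 rests on single libraries, as 0 genes of the list were called without KO rod replicate 2 or without any 1 of the 3 Het rod replicates, and 2 without KO rod replicate 3.

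Mitochondrial ATP export, which hands ATP to the kinase encoded by Ckmt1, had 7 genes tested, of which 3 (Slc25a3, Slc25a5 and Vdac2) were higher and 0 lower in Het rods (median 0.64, or 0.49 over the 6 detected in rods). Slc25a5, an ADP/ATP carrier, averaged 8701 ± 184 in Het rods and 3053 ± 201 in Het retina (SD, n = 3; log2 1.34, SE 0.11, limma adjusted p = 9.96e-06), while its relative Slc25a4 was not called (0.23, SE 0.13, limma adjusted p = 0.146). In KO rods 3 of 6 tested were higher and 0 lower (median 0.52), with Slc25a5 at 1.49. Ckmt1 and Slc25a5 were thus both higher in rods than in retina, in both genotypes, as were 21.6% of all genes in Het and 25.8% in KO.

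Of 11 genes of ion pumps, known as large users of ATP in rods, 3 were higher and 6 lower in Het rods (median -3.49), and KO rods gave the same counts (median -3.90). Over the 10 detected in rods 5 were lower in each genotype, with medians of -1.67 and -1.84. The pump subunit Atp1b2 was abundant, at 51034 ± 1872 in Het rods and 19657 ± 1715 in Het retina (SD, n = 3), and was higher in rods by 1.21 (SE 0.11, limma adjusted p = 2.27e-05). Atp1b1 fell the most of these genes in KO rods (log2 -5.25, SE 0.17, limma adjusted p = 3.69e-07). Slc6a9 (0.72, SE 0.14, limma adjusted p = 0.00529) and Asl (0.62, SE 0.15, limma adjusted p = 0.0133) were the calls of the transporter and arginine lists between KO and Het rods, and the ATP export list had 0 calls by limma, with 4 genes at an unadjusted p under 0.05. The arginine list also had 0 calls without Het rod replicate 1. Each call of these lists between KO and Het rods was lost with the GC trend removed and in 1 fit of all 12 libraries, where limma called 0 genes of any of them. Between KO and Het retina, and for the difference between the genotype effects in rods and retina, 0 genes of these 6 lists were called by limma, with 0 and 3 genes at an unadjusted p under 0.05.

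**Figure D3:**
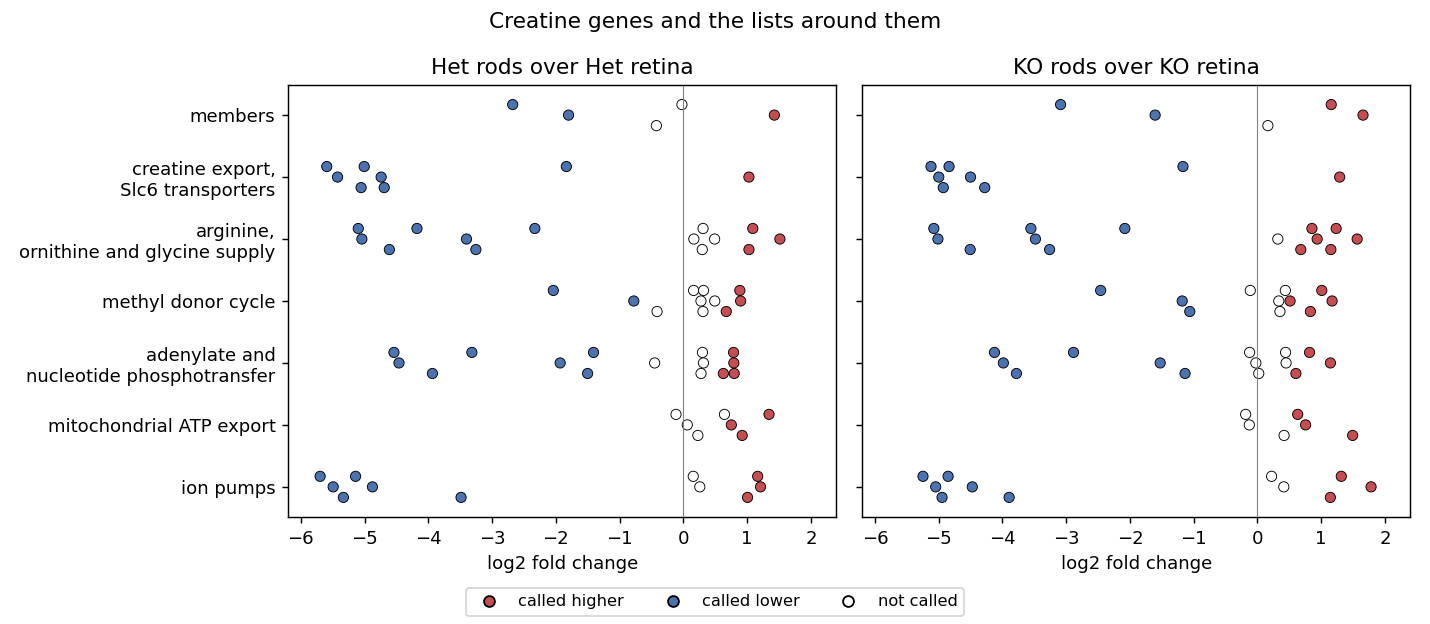
Log2 fold changes of rods over retina for the creatine genes tested and for each gene tested of the 6 lists, in Het and in KO, with a point for each gene coloured by whether it was called. The transporters and ion pumps reach below -5 in both genotypes, and no gene of mitochondrial ATP export was called lower.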

How the data were processed

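The members and the lists were chosen with earlier results of these data known. The deposited table gives a signal in whole numbers for 12 libraries. The authors name CASAVA 1.8.2, HISAT2, DESeq2, edgeR and GRCm39 in their processing notes, without the role of each. Nearly equal totals within a fraction point to reads multiplied by 1 factor per library before deposition, which no note states. These factors, and from them the reads, were estimated from the spacing of low values, except that for Het retina replicate 3 a factor of 1 was as likely.

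A gene was tested if it had a value of about 10 in at least 3 libraries of a comparison and a sum of at least 15. Values were TMM-scaled, raised by 2, taken to log2 and fitted with limma 3.58.1 in R 4.3.3 (trend and robust options, groups of the comparison alone), with Benjamini-Hochberg adjustment over all genes tested. The steps were tested on simulated data. Exact permutation tests used SciPy 1.17.1. GC content, lengths and sequences came from GENCODE M21 (GRCm38), matched by Ensembl identifier.

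Genes named besides the members are Ptpn11, the 2 most abundant genes of a pathway list and its called genes of largest rise and fall per comparison, the most abundant gene of each cell type list, and the 5 genes nearest to Ckb. Not every gene picked by this rule is printed. Genes beyond these were named after their values were seen. Residuals of Het rod and Het retina libraries of the same replicate number correlated across genes (r 0.43, 0.38 and 0.24), those of KO rods and KO retina less so (0.31, 0.02 and 0.20), and a replicate block was tried, beside other scalings, pseudocounts, filters, fits, removal of the GC trend and leaving out each library. Between KO and Het retina libraries, which differ in genotype, r ran from -0.58 to 0.53. Values of this size therefore do not show that 2 libraries share a mouse.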

Additional observations from a re-analysis of the deposited data

How the results depend on the processing

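Of the tested fold changes of members under other settings, 223 stayed on their side of the threshold, 3 lost a call, 2 gained one, and 2, of Ckb in Het rods over retina, gained one with a change of sign. Values not called also changed sign, as Gamt did in Het rods over retina (-0.87 to 0.68), in KO rods over retina (-0.35 to 0.68) and between KO and Het retina (-0.25 to 0.92), and Ckb between KO and Het retina (-0.27 to 0.66). Ckmt1 and Slc6a8 were called in both rods over retina comparisons under all 15 settings tried for each, with log2 fold changes from 1.01 to 2.00 and 1.12 to 1.93 for Ckmt1 and from -2.21 to -1.04 and -2.14 to -1.27 for Slc6a8, in Het and KO. Ckb in Het rods over retina went from -0.02 to 1.11 with the GC trend removed, and to 1.11 with it removed and a replicate block. In KO rods over retina Ckb was not called with library totals alone (0.62), with no filter (1.18) or without KO rod replicate 2 (1.03), and Gamt was called with the GC trend removed (0.67). Library totals alone moved the median of all genes from -0.11 to -0.51 in Het and from -0.02 to -0.55 in KO, and removing the GC trend moved it to 0.37 and 0.40. Relative to that median, Ckb in KO stood at 1.18 with TMM, 1.16 with totals and 1.28 with the GC trend removed, and in Het at 0.08, 0.07 and 0.74. Genes called higher and lower went from 3475 and 5921 in Het to 1168 and 7399 with totals and 6889 and 4987 with the GC trend removed, and in KO from 4164 and 5878 to 1144 and 7846, and 7091 and 4984. The count between KO and Het rods, 1710 with 1460 higher, was 340 (173 higher) with the GC trend removed, 399 with a replicate block as well, 0 by limma in 1 fit of all 12 libraries (3127 at an unadjusted p under 0.05), and 1786 (1202 higher) with totals. It ranged from 950 (without Het rod replicate 1) to 1976 when a library was left out, and the interaction count from 0 to 1 (without Het rod replicate 3). With the replicate block alone no member gained or lost a call, and 9845 genes were called in Het rods over retina. Leaving out both retina libraries of highest Ckb, an alternative chosen after seeing the data, gave 0 members and 7 genes called between KO and Het retina. Taking the longest transcript put the mean Ckmt1 share at 65.6, 52.1, 41.3 and 43.8% in Het rods, KO rods, Het retina and KO retina. Of the values without a test, 148 moved by less than the spread between libraries and 15 by more, and of the list counts 453 stayed within 1.5 times and 39 did not. For all these changes the cause was not tested. Depth limits Gatm, Ckm and Ckmt2 in rods, where values lie near or under 3 reads.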

Other observations

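Slc16a12, which encodes another creatine transporter of the eye, had values of 5, 0 and 0 in Het rods, against 3, 4 and 1 in KO rods. In whole retina its values were 45, 75 and 199 in Het, against 67, 116 and 144 in KO. All retina libraries were above all rod libraries, which were near the limit of 3 reads, and the genotypes overlapped in both fractions. It was picked out after its values were seen, from the list of creatine export and related transporters. Its lower call is counted among the 7 of that list in each genotype, but it passed the filter on low values through the retina libraries alone. That call therefore supports nothing, no p-value is given for it, and Slc16a12 is not among the transporters detected in rods. The summed level of lens markers, led by Cryaa, was 502, 267700 and 254027 in Het retina and 72154, 166222 and 963019.9 in KO retina. Het retina replicate 1 was lowest in both measures, while Slc16a12 was highest in Het retina replicate 3 and the lens markers in KO retina replicate 3. Whether lens tissue holds the Slc16a12 RNA of these libraries was not tested.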
